A study of Mus musculus with 18 samples.

Results

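RNA of 10 genes of the T follicular helper (Tfh) program was followed in CD4+ T cells that lacked *Nr4a1* and *Nr4a3* or carried both. The set holds 5 transcription regulators (*Bcl6*, *Ascl2*, *Maf*, *Pou2af1* and the *Bcl6* antagonist *Prdm1*), the surface receptors *Cxcr5*, *Icos* and *Slamf6*, the adaptor *Sh2d1a* and the cytokine *Il21*. They were taken by gene symbol from the 55284 named genes of the table, all 10 were found, and all 10 were among the 33795 genes with enough reads to be tested. The genes had been named without a threshold on their values, but with earlier results of these data known.

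The 18 libraries came from 3 competitive bone marrow chimeras, numbered 10, 11 and 12. Irradiated CD45.1 BoyJ hosts had received a minority of CD45.2 double-knockout (DKO) marrow together with wild-type (WT) CD45.1/2 marrow. In DKO marrow *Nr4a1* was deleted through an excised floxed allele and *Nr4a3* by CRISPR in the germline. Genotype and the CD45 type of the donor cannot be told apart in this design. From spleen and lymph nodes of each C57BL/6 background chimera, CD4+CD25- cells of both donors were sorted through an anergic gate (among other markers CD44 high, FR4 high, CD73 high) and through a naive gate (among other markers CD44 low, FR4 low, CD73 low). Part of the naive cells was stimulated for 3 h with plate-bound anti-CD3 and anti-CD28, which gave 6 groups of 3 libraries: DKO anergic, WT anergic, DKO naive, WT naive, DKO stimulated and WT stimulated. *Nr4a* loss was present in every DKO cell type of the chimera from the stem cell on, so the DKO cells had also developed in the thymus without both factors. DKO and WT cells of a chimera shared 1 host, and the labels give no ages.

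Tfh cells are the CD4+ T cells that enter B cell follicles and help germinal center B cells. The repressor BCL6 is the lineage-defining factor of these cells, and it and BLIMP-1, the product of *Prdm1*, repress each other's genes. ASCL2 promotes *Cxcr5* expression, CXCR5 guides the cells toward follicles, ICOS and the SLAM family receptors with their adaptor SAP (the product of *Sh2d1a*) sustain contact with B cells, and the cytokine encoded by *Il21* acts on B cells and on the T cells themselves.

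The upstream sequences of the antagonists *Bcl6* and *Prdm1*, and of *Il21* and *Ascl2*, the members with the largest genotype differences in anergic cells, are shown because the RNA values concern genes read from these promoters. RefSeq windows for build GRCm38.p6 (mm10) run from 250 bases before to 50 bases after a transcription start, and 6 of the 10 members had one. The 250 bases before the start are printed on the gene's own strand, all 5 of them minus: *Bcl6* has one start at the 5′ end of the gene (chr16:23988853-23989102) and another inside it (chr16:23981284-23981533), *Prdm1* likewise has a window at a start inside the gene as annotated (chr10:44458749-44458998), and the others are *Il21* (chr3:37232637-37232886) and *Ascl2* (chr7:142969265-142969514). Capitals mark matches to the searched motifs.
Bcl6, outer start: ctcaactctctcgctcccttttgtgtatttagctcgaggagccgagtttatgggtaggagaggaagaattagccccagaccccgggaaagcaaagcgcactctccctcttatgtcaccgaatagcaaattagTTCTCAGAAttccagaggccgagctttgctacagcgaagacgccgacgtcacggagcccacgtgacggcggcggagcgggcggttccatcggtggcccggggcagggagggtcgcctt
Bcl6, inner start: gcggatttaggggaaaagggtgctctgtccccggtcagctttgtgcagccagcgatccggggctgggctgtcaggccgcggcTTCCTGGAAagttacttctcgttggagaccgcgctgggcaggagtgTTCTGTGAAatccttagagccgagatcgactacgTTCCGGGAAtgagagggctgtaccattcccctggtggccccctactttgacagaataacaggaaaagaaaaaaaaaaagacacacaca
Prdm1: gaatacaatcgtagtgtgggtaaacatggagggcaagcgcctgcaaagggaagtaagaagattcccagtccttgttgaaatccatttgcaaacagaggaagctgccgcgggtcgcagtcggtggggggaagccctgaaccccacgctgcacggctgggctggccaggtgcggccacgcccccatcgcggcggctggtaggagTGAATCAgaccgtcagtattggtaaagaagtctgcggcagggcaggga
Il21: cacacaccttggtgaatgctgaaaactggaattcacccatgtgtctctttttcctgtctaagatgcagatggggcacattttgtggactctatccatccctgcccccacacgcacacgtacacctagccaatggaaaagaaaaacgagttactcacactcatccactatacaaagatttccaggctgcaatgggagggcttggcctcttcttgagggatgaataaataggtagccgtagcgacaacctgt
Ascl2: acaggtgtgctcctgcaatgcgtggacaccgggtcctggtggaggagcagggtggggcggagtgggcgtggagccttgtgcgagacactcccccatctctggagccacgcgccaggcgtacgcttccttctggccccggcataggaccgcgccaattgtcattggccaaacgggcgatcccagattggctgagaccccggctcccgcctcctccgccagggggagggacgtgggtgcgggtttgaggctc

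The windows were searched on both strands for AAAGGTCA, the NBRE bound by NR4A factors, for TTCNNNGAA, a spacing that BCL6 and STAT factors share, for ATGCAAAT, the octamer bound by POU2F factors with POU2AF1, and for TGANTCA, the AP-1 site. The outer *Bcl6* window held 1 TTCNNNGAA and the inner one held 3, none overlapping another motif, against at least 1 in 8.30% of all 32851 windows. The *Prdm1* window, at that inner start, held 1 TGANTCA, 48 bases before the start, against 7.81% of all windows. The windows of *Il21*, *Ascl2*, *Pou2af1* and *Slamf6* held none of the 4 motifs. AAAGGTCA, present in 1.51% of all windows, and ATGCAAAT, present in 1.74%, were not found in any window of the members.

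The libraries held 16122020 to 39752234 counts in named genes, with 32529589 to 38380064 in DKO anergic and 20851693 to 24195860 in WT anergic libraries. Chimera 12 stood apart in its WT naive and its WT stimulated library: of 15117 expressed genes, 3216 and 3471 differed there by over 2-fold from the mean of the other libraries of the group, as did 2271 in the WT naive library of chimera 11 and 1394 in the WT stimulated library of chimera 10, against 25 to 517 genes in the other libraries. *Nr4a1* stood at 162 to 169 TPM (transcript abundance scaled for gene length and library size) in DKO anergic and at 170 to 195 TPM in WT anergic libraries, so the deposited gene-level values, which take in sequence outside the deleted part, do not check the genotype. Counting used no strand information, and *Cxcr5* shares exon sequence with *Bcl9l*, *Sh2d1a* with *Tenm1* and *Bcl6* with the predicted gene *Gm37419*, each on the opposite strand, so reads of these pairs cannot be told apart there.

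**Figure D1:**
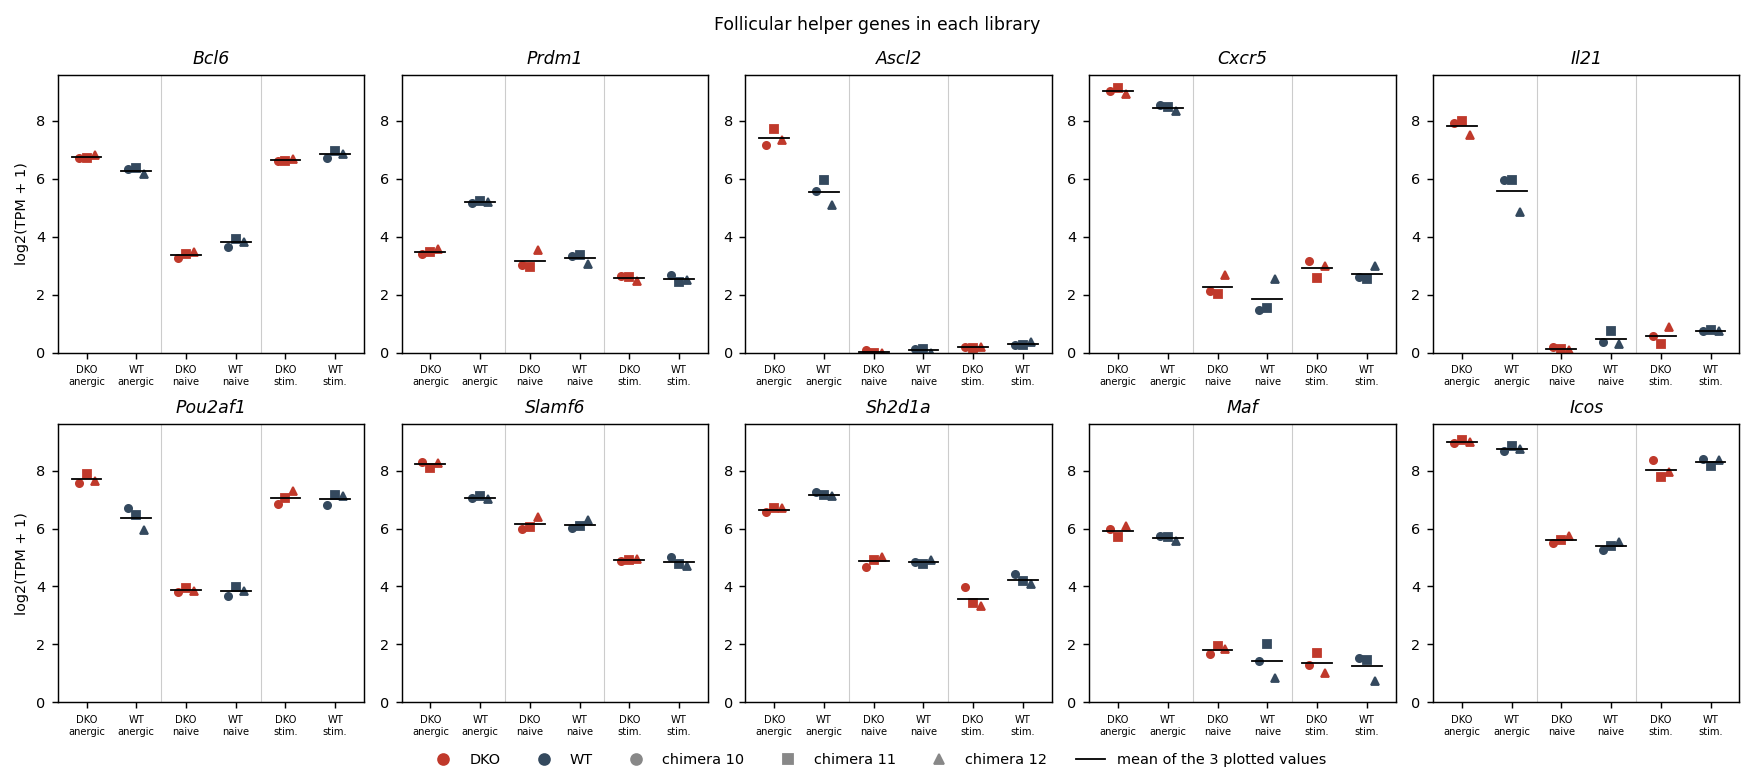
Level of each follicular helper gene in each of the 18 libraries as log2(TPM + 1), with 1 panel per gene, DKO libraries left of WT libraries in each population, symbols for the chimeras and a line at the mean of the 3 plotted values. *Prdm1* is highest in the 3 WT anergic libraries, *Il21*, *Ascl2*, *Pou2af1* and *Slamf6* in the 3 DKO anergic libraries.

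The first comparison asked how DKO and WT cells of the anergic gate differed. In DKO anergic cells *Il21*, *Ascl2*, *Pou2af1* and *Slamf6* were higher and *Prdm1* was lower than in WT anergic cells of the same chimeras, while *Bcl6*, *Cxcr5*, *Icos*, *Maf* and *Sh2d1a* did not pass the test. Thus 4 of 10 members rose and 1 fell at an adjusted p under 0.05 (edgeR's quasi-likelihood test, Benjamini-Hochberg over 33795 genes), beside 0.879% of all tested genes that rose and 0.459% that fell. Without chimera 11 the count was 3 members in all, and without chimera 12 it was 7. The share of all tested genes was not taken for either of these fits. The median log2 fold change of the 10 members was 0.75, that of all tested genes −0.03 and that of the 15067 genes with a mean log2 CPM over 1 was 0.16. For each member the fitted fold change, DKO over WT, lay above the ratio of mean TPM. Fitted rises are thus larger, and fitted falls smaller, than the TPM below show. The ratio of mean TPM was 4.50 for *Il21*, 1.39 for *Bcl6*, 0.697 for *Sh2d1a* and 0.286 for *Prdm1*. Since RNA was measured in bulk, fewer cells that express a gene and less RNA per cell cannot be told apart.

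*Prdm1*, the antagonist, had 9.71, 9.99 and 11.0 TPM in DKO anergic cells of chimeras 10, 11 and 12, against 34.9, 36.2 and 36.2 TPM in WT anergic cells. The groups were far apart and each was tight. The log2 fold change was −1.57 ± 0.23 (SE, n = 3 chimeras), or 2.98-fold lower in DKO cells (adjusted p = 0.000169 by edgeR). The gene lies on chromosome 10 (44437177-44528501, minus strand, ENSMUSG00000038151). It passed in all 13 alternative analyses, with log2 fold changes from −1.80 to −1.52.

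*Bcl6* (chromosome 16, 23965052-23988852, minus strand, ENSMUSG00000022508) had 105, 103 and 113 TPM in DKO anergic cells, against 79.3, 81.8 and 70.2 TPM in WT anergic cells. Every DKO library lay above every WT library. The log2 fold change of 0.69 ± 0.23 (SE, n = 3; 95% interval 0.22 to 1.17) did not pass over all tested genes (edgeR adjusted p = 0.226). It passed in 7 of the 13 alternatives, with log2 fold changes from 0.47 to 0.78 and adjusted p from 0.00587 to 0.989, among them the fit without the naive and stimulated WT samples of chimera 12 (log2 fold change 0.70, adjusted p = 0.00587 by edgeR).

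The ratio of *Bcl6* to *Prdm1* TPM within a library was taken as a description of the pair, with no test. It was 10.8, 10.3 and 10.3 in DKO anergic cells, against 2.28, 2.26 and 1.94 in WT anergic cells. On the log2 scale the DKO ratio exceeded the WT ratio of the same chimera by 2.28 ± 0.11 (SD, n = 3), and the range was 2.19 to 2.40. In naive cells the ratio was 0.932 to 1.41 in DKO, against 1.27 to 1.79 in WT samples. In stimulated cells it was 18.3 to 22.6 in DKO, against 19.0 to 27.9 in WT samples. The genotypes overlapped in both populations, while within each chimera the DKO ratio was the lower one. The log2 ratio of DKO minus WT was −0.37 ± 0.50 in naive cells, ranging from −0.94 to −0.04, and −0.25 ± 0.27 in stimulated cells, ranging from −0.56 to −0.05 (SD, n = 3 chimeras each). Anergic DKO cells thus had ratios between those of naive and stimulated cells, and so did anergic WT cells, at a lower value.

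**Figure D2:**
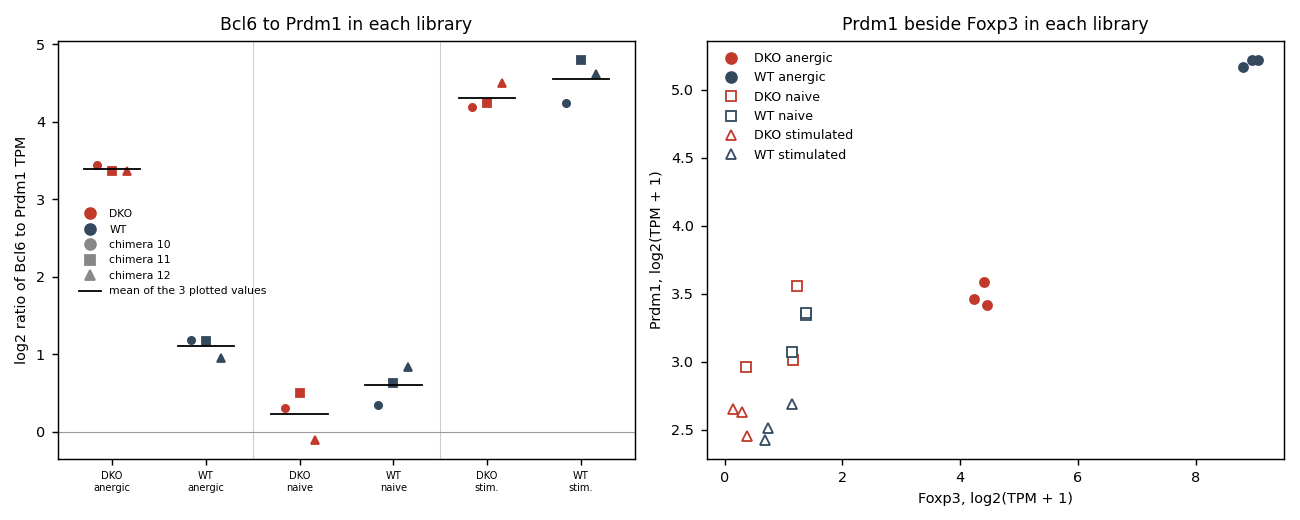
Left, log2 ratio of *Bcl6* to *Prdm1* TPM in each library, by group, with symbols for the chimeras and a line at the mean of the 3 values. Right, *Prdm1* against *Foxp3* in each library, both as log2(TPM + 1). The DKO anergic ratios of 10.3 to 10.8 lie above the WT anergic ratios of 1.94 to 2.28, and the WT anergic libraries stand apart at the highest *Foxp3* and *Prdm1*.

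*Prdm1* is also expressed by regulatory T cells (Tregs), and follicular regulatory T cells carry *Bcl6*, *Cxcr5* and *Foxp3* together, so Treg markers were read in the same libraries. *Foxp3*, the lineage factor of Tregs, was at 17.9 to 20.9 TPM in DKO anergic and at 447 to 533 TPM in WT anergic libraries, although both had been sorted as CD25-. Of 10 Treg markers, 5 fell in DKO anergic cells (*Foxp3*, *Ikzf4*, *Lrrc32*, *Gpr83* and *Il2ra*) and none rose, beside 0.459% and 0.879% of all tested genes. The summed level of the list was 1041 to 1160 TPM in DKO anergic and 2028 to 2344 TPM in WT anergic libraries, and no marker was at 0. Plasma cells, which also use *Prdm1*, contributed no called marker out of 5 tested, and *Sdc1* was at 1.54 to 4.15 TPM in DKO and 1.35 to 2.12 TPM in WT anergic libraries. *Jchain*, of the same list, was at 0.806 to 20.2 TPM in DKO and 8.37 to 178 TPM in WT anergic libraries (log2 fold change −2.98 ± 1.02, edgeR adjusted p = 0.249), and the summed list was 247 to 292 TPM in DKO and 264 to 426 TPM in WT. The part of the Treg and plasma cell markers in the difference in *Prdm1* was not tested.

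*Il21* showed the largest difference among the members. It had 243, 252 and 182 TPM in DKO anergic cells, against 61.1, 61.6 and 27.6 TPM in WT anergic cells. The lowest DKO library was well above the highest WT library, and chimera 12 was the lowest in both genotypes. The log2 fold change was 2.40 ± 0.35 (SE, n = 3), or 5.29-fold (edgeR adjusted p = 0.00017). *Il21* lies on chromosome 3 (37222759-37232636, minus strand, ENSMUSG00000027718), and its call held in all 13 alternatives at 2.21 to 2.54 on the log2 scale.

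*Ascl2*, a basic helix-loop-helix factor, had 142, 209 and 162 TPM in DKO anergic cells, against 46.9, 61.2 and 33.2 TPM in WT anergic cells. Chimera 11 was the highest in both genotypes, and the ranges did not overlap. The log2 fold change was 2.12 ± 0.27 (SE, n = 3), or 4.34-fold (edgeR adjusted p = 3.40e-05), and passed in all 13 alternatives at 1.86 to 2.27. The gene occupies chromosome 7 (142966829-142969264, minus strand, ENSMUSG00000009248).

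*Pou2af1* encodes the octamer coactivator of POU2F factors, best known from B cells. It had 191, 235 and 199 TPM in DKO anergic cells, against 103, 88.3 and 60.2 TPM in WT anergic cells. All DKO libraries were above all WT libraries. The log2 fold change was 1.51 ± 0.28 (SE, n = 3), or 2.86-fold (edgeR adjusted p = 0.00307). Without chimera 11 the log2 fold change was 1.46 and did not pass (adjusted p = 0.184), and the 12 other alternatives passed. The gene lies on chromosome 9 (51213708-51240080, plus strand, ENSMUSG00000032053).

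*Slamf6*, a receptor of the SLAM family, had 311, 271 and 308 TPM in DKO anergic cells, against 131, 138 and 129 TPM in WT anergic cells. Every DKO library lay far above every WT library, and the WT values were close together. The log2 fold change was 1.39 ± 0.23 (SE, n = 3), or 2.62-fold (edgeR adjusted p = 0.000673). The call was lost without chimera 10 (1.36, adjusted p = 0.0864) and without chimera 11 (1.51, adjusted p = 0.0811). *Slamf6* lies on chromosome 1 (171917515-171953170, plus strand, ENSMUSG00000015314).

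B cells express *Pou2af1*, *Cxcr5*, *Slamf6* and *Bcl6*, so B cell markers were read in the same libraries. *Ighm* was at 2378 to 3269 TPM in DKO anergic and 3844 to 4146 TPM in WT anergic libraries, and *Cd74* at 161 to 315 TPM in DKO and 362 to 445 TPM in WT. *Cd79a* was at 7.48 to 10.9 TPM in DKO anergic and 10.8 to 14.5 TPM in WT anergic libraries, and *Ms4a1* at 4.64 to 5.95 TPM in DKO and 3.80 to 7.08 TPM in WT. Of 14 B cell markers 1 was called, *Pax5*, which was higher in DKO anergic cells at 1.43 to 2.41 TPM against 0.647 to 0.799 TPM in WT. The summed list was 2746 to 3734 TPM in DKO anergic and 4384 to 4670 TPM in WT anergic libraries, and *Ighm* made up most of it in both. The genotypes overlapped in *Ms4a1* and *Cd79a*, and DKO libraries were below WT libraries in *Ighm* and *Cd74*. Of 5 germinal center B cell markers tested, *S1pr2* and *Mef2b* were higher in DKO anergic cells and none was lower. Beside these lists, 0.879% of all tested genes were higher and 0.459% lower. Of 7 T cell identity markers none was called, and their summed level was 13248 to 13916 TPM in DKO, against 11250 to 12740 TPM in WT anergic libraries. The part of B cell RNA in these differences was not tested.

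The remaining members did not pass. Ranges of TPM in anergic cells are given for each as a description. The share of all tested genes whose ranges do not overlap between the genotypes was not taken. *Cxcr5*, the follicle homing receptor (chromosome 9, 44511787-44561877, minus strand, ENSMUSG00000047880), had 524, 556 and 492 TPM in DKO anergic cells, against 372, 358 and 321 TPM in WT anergic cells. The ranges did not overlap, but the log2 fold change of 0.81 ± 0.31 (SE, n = 3; 95% interval 0.17 to 1.44) did not pass (edgeR adjusted p = 0.372). It passed in 4 of 13 alternatives, with adjusted p from 0.000971 to 1, including the fit without the naive and stimulated WT samples of chimera 12 (log2 fold change 0.81, adjusted p = 0.00704 by edgeR).

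*Icos*, the costimulatory receptor on chromosome 1 (60977927-61000320, plus strand, ENSMUSG00000026009), had 492, 536 and 504 TPM in DKO anergic cells, against 412, 457 and 423 TPM in WT anergic cells. Its log2 fold change of 0.48 ± 0.24 (95% interval −0.02 to 0.99, edgeR adjusted p = 0.639) passed in 1 of 13 alternatives. *Maf*, a factor that promotes *Il21* expression (chromosome 8, 115682942-115707794, minus strand, ENSMUSG00000055435), had 62.1, 51.0 and 67.1 TPM in DKO anergic cells, against 52.4, 51.5 and 46.9 TPM in WT anergic cells, and these overlapped. Its log2 fold change was 0.53 ± 0.24 (95% interval 0.03 to 1.02, edgeR adjusted p = 0.544), and it did not pass in any of the 13 alternatives. *Sh2d1a*, on chromosome X (42502453-42529330, plus strand, ENSMUSG00000005696), had 93.2, 103 and 103 TPM in DKO anergic cells, against 151, 141 and 137 TPM in WT anergic cells. Its TPM was below WT in each chimera, and its log2 fold change on the counts, −0.29 ± 0.22 (95% interval −0.74 to 0.17, edgeR adjusted p = 0.783), did not pass in any of the 13 alternatives.

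The next question was whether genotype differences were already present in naive cells or arose within hours of T cell receptor stimulation. None of the 10 members differed between DKO and WT naive cells by edgeR (adjusted p of at least 0.767), beside 0.0385% of all tested genes higher and 0.0562% lower. DESeq2 and limma also called none, and 2 members, *Bcl6* and *Il21*, had an unadjusted p under 0.05. *Bcl6* had 8.71, 9.61 and 10.0 TPM in DKO naive cells, against 11.6, 14.3 and 13.2 TPM in WT naive cells, so the DKO libraries were the lower ones, and the log2 fold change was −0.59 ± 0.24 (SE, n = 3, edgeR adjusted p = 0.767), or −0.49 without the naive and stimulated WT samples of chimera 12. *Il21* was barely detected, with 6, 3 and 2 counts in DKO naive and 12, 25 and 13 counts in WT naive libraries. The ratio of the summed counts, DKO over WT, was 0.246 after scaling, with a 95% counting interval of 0.116 to 0.479. The edgeR test of *Il21* (adjusted p = 0.767) passed in 1 of 12 alternatives, that with no filter on low counts (log2 fold change −2.14, adjusted p = 0.0242, range over the alternatives 0.0242 to 1).

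In stimulated cells the count was again 0 of 10 by edgeR, DESeq2 and limma, beside 0.0473% of all tested genes higher in DKO and 0.169% lower. Only *Sh2d1a* had an unadjusted p under 0.05. It had 15.0, 9.72 and 9.04 TPM in DKO stimulated cells, against 20.8, 17.1 and 16.0 TPM in WT stimulated cells, and its log2 fold change was −0.71 ± 0.23 (SE, n = 3, edgeR adjusted p = 0.585), or −0.44 without the naive and stimulated WT samples of chimera 12. *Bcl6* had 97.2, 98.0 and 101 TPM in DKO stimulated cells, against 104, 122 and 116 TPM in WT stimulated cells. The log2 fold changes of the 10 members lay between −0.71 and 0.20.

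**Figure D3:**
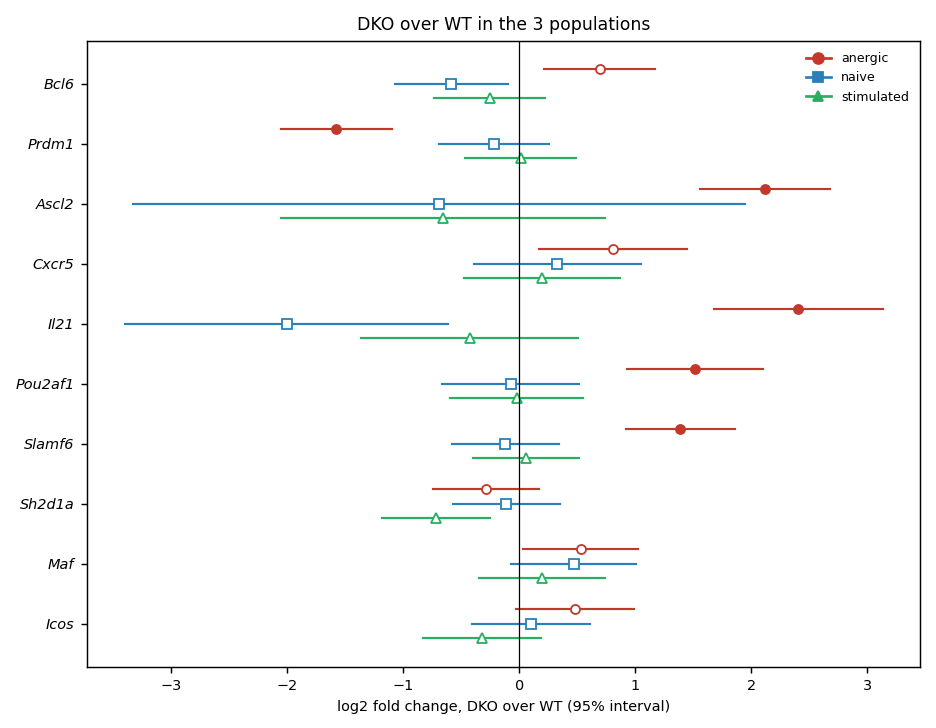
Log2 fold change of DKO over WT with its 95% interval for each follicular helper gene in anergic, naive and stimulated cells, from edgeR on 3 chimeras. Filled symbols passed at an adjusted p under 0.05: *Il21*, *Ascl2*, *Pou2af1* and *Slamf6* to the right and *Prdm1* to the left, all in anergic cells.

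Whether the genotype difference itself differed between populations was tested as an interaction. The difference in anergic cells exceeded that in naive cells for 2 of 10 members, *Il21* by 4.41 ± 0.74 and *Slamf6* by 1.51 ± 0.32 on the log2 scale (SE, n = 3, edgeR adjusted p = 0.00364 and 0.0285), beside 0.228% of all tested genes higher and 0.157% lower. *Pou2af1* (1.59 ± 0.40, adjusted p = 0.107), *Bcl6* (1.28 ± 0.33, adjusted p = 0.118) and *Prdm1* (−1.36 ± 0.32, adjusted p = 0.0693) did not pass in this fit by edgeR. Without the chimera 12 WT naive and stimulated libraries 5 members passed, namely these 5, and without chimera 10 or without chimera 11 none did. For these fits the share of all tested genes was not taken. The *Il21* interaction rests on the 2 to 25 counts per naive library, and it ranged from 2.56 to 5.08 over the 13 alternatives. For stimulated minus naive cells 0 of 10 members passed, had an unadjusted p under 0.05, or were called by DESeq2 or limma, beside 0% of all tested genes higher and 0.00296% lower.

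Anergic and naive cells of the same genotype were then compared. In DKO cells 9 of 10 members were higher in anergic than in naive cells, with *Prdm1* as the exception, beside 6.65% of all tested genes higher and 2.76% lower. In WT cells all 10 were higher, beside 5.11% higher and 4.71% lower (edgeR, adjusted p under 0.05). The median log2 fold change of the members was 3.85 in DKO and 2.82 in WT cells, against −0.21 and 0.26 over all tested genes. *Ascl2*, whose fitted value is not bounded by its counts, lies above both medians. The gate itself does not use any of the 10 products. It does select on FR4, and *Izumo1r*, which encodes FR4, is among the other Tfh genes read below. The part of the gate in these differences was not tested.

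*Cxcr5* and *Maf* were followed first. *Cxcr5* had 492 to 556 TPM in DKO anergic against 3.05 to 5.40 TPM in DKO naive libraries, and 321 to 372 TPM in WT anergic against 1.75 to 4.85 TPM in WT naive libraries. The log2 fold changes were 7.28 ± 0.41 in DKO and 6.80 ± 0.40 in WT cells (SE, n = 3). The WT naive library of chimera 12, at 4.85 TPM, was the highest of its group, and the WT log2 fold change ranged from 6.43 to 7.60 over the 13 alternatives and was 7.60 without chimera 12. *Maf* was higher by 4.75 ± 0.28 in DKO and 4.69 ± 0.28 in WT cells, with at most 3.01 TPM in any naive library. For both genes the interaction did not pass. Without the naive and stimulated WT samples of chimera 12 the WT values were 7.47 for *Cxcr5* and 4.43 for *Maf*.

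*Icos* was higher in anergic than in naive cells by 3.55 ± 0.27 in DKO and 3.17 ± 0.27 in WT cells, and *Sh2d1a* by 1.95 ± 0.23 in DKO and 2.13 ± 0.23 in WT cells (log2, SE, n = 3). *Bcl6* was higher by 3.64 ± 0.26 in DKO and 2.36 ± 0.24 in WT cells, and *Pou2af1* by 4.06 ± 0.32 in DKO and 2.47 ± 0.30 in WT cells. Without the naive and stimulated WT samples of chimera 12 the WT log2 fold changes were 3.39 for *Icos*, 2.33 for *Sh2d1a*, 2.50 for *Bcl6* and 2.63 for *Pou2af1*. *Slamf6* was higher by 2.22 ± 0.23 in DKO cells. In WT cells it was higher by 0.71 ± 0.22 (edgeR adjusted p = 0.0415), and this call held in 6 of 13 alternatives, which ranged from 0.50 to 1.02, and not without chimera 10 (0.71, adjusted p = 0.333) or chimera 11 (0.51, adjusted p = 0.408). Without the naive and stimulated WT samples of chimera 12 it was 0.91 (edgeR adjusted p = 0.000567).

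*Prdm1* was the member with the smallest difference in DKO cells. It had 9.71 to 11.0 TPM in DKO anergic against 6.80 to 10.7 TPM in DKO naive libraries, which overlapped, and the log2 fold change of 0.48 ± 0.23 (SE, n = 3; 95% interval 0.01 to 0.95) did not pass (edgeR adjusted p = 0.261). It passed in 3 of 13 alternatives, with adjusted p from 0.00737 to 0.924, among them the fits without chimera 12 (0.69, adjusted p = 0.00737) and without its WT naive and stimulated libraries (0.52, adjusted p = 0.0245). In WT cells *Prdm1* had 34.9 to 36.2 TPM in anergic against 7.41 to 9.27 TPM in naive libraries, a log2 fold change of 1.83 ± 0.23 (SE, n = 3, edgeR adjusted p = 2.25e-06), and 1.83 without the naive and stimulated WT samples of chimera 12. *Foxp3* was also higher in anergic than in naive cells, by 4.55 in DKO and by 8.17 in WT cells on the log2 scale. The part of *Foxp3*-expressing cells in the *Prdm1* values was not tested.

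*Ascl2* and *Il21* were close to absent from naive libraries. *Ascl2* had 8817 counts in the 3 DKO anergic libraries together against 1 count in the DKO naive ones, a ratio of 6110 after scaling with a 95% counting interval of 1096 to 241343. In WT cells it had 1540 counts against 2, a ratio of 794 with an interval of 220 to 6566. These intervals cover counting error only, and the fitted fold changes of *Ascl2* depend on the prior count and are not given. *Il21* had 37208 counts in DKO anergic against 11 in DKO naive libraries, and 5379 in WT anergic against 50 in WT naive libraries. Its log2 fold changes were 11.19 ± 0.57 in DKO and 6.78 ± 0.46 in WT cells (SE, n = 3), and the WT value was 6.76 without the naive and stimulated WT samples of chimera 12. Over the 13 alternatives the *Il21* values ranged from 7.67 to 11.6 in DKO and from 5.11 to 6.98 in WT cells.

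**Figure D4:**
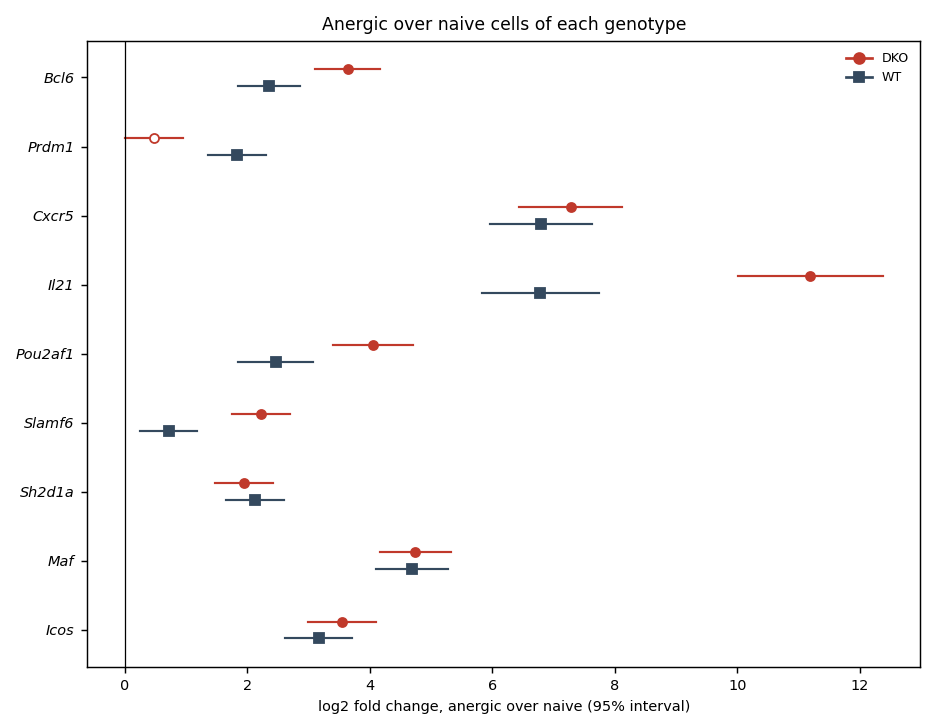
Log2 fold change of anergic over naive cells with its 95% interval for 9 of the follicular helper genes in DKO and WT cells, from edgeR on 3 chimeras. Filled symbols passed at an adjusted p under 0.05, and the open symbol is *Prdm1* in DKO cells at 0.48. *Ascl2*, with 1 count in DKO naive and 2 counts in WT naive libraries, is not plotted.

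After 3 h of stimulation a subset of the members was higher than in naive cells. The naive cells were lysed directly after the sort, and no group was cultured without stimulation. Effects of culture and of T cell receptor stimulation therefore cannot be told apart in these differences. In DKO cells 5 of 10 rose and 2 fell relative to DKO naive cells, beside 8.34% of all tested genes higher and 5.73% lower. In WT cells 4 rose and 1 fell, beside 7.13% higher and 4.79% lower (edgeR, adjusted p under 0.05). Without chimera 11 the counts were 4 members in DKO and 3 in WT cells, and without chimera 10 they were 5 in DKO and 3 in WT cells. Here too the share of all tested genes was not taken. The subset that rose in both genotypes was *Bcl6*, *Pou2af1*, *Icos* and *Cxcr5*, and *Slamf6* fell in both. The libraries of a genotype share their naive cells between this comparison and the one with anergic cells.

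*Bcl6* rose by 3.69 ± 0.26 in DKO and 3.36 ± 0.25 in WT cells, *Pou2af1* by 3.59 ± 0.31 in DKO and 3.54 ± 0.31 in WT cells, and *Icos* by 2.75 ± 0.26 in DKO and 3.17 ± 0.27 in WT cells (log2, SE, n = 3). Without the naive and stimulated WT samples of chimera 12 the WT values were 3.23 for *Bcl6*, 3.35 for *Pou2af1*, 3.10 for *Icos* and 1.53 for *Cxcr5*. *Cxcr5* rose by 1.10 ± 0.34 in DKO and 1.23 ± 0.34 in WT cells, to 4.99 to 8.01 TPM in DKO and 4.81 to 6.88 TPM in WT stimulated libraries. These were far below its anergic levels of over 300 TPM, and the *Cxcr5* call was lost without chimera 10 or 11 in either genotype (edgeR adjusted p of 0.107 and 0.141 in DKO cells, and of 0.0579 and 0.161 in WT cells).

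*Slamf6* dropped by 0.96 ± 0.22 in DKO and 1.14 ± 0.23 in WT cells, with 28.4 to 29.9 TPM in DKO stimulated against 62.5 to 83.5 TPM in DKO naive libraries, and 24.8 to 31.7 TPM in WT stimulated against 63.8 to 78.0 TPM in WT naive libraries. The *Slamf6* call was lost without chimera 10 or 11 in either genotype (edgeR adjusted p of 0.2 and 0.153 in DKO cells, and of 0.06 and 0.082 in WT cells). Without the naive and stimulated WT samples of chimera 12 the WT value of *Slamf6* was −1.08. *Sh2d1a* dropped by 1.04 ± 0.23 in DKO cells (edgeR adjusted p = 0.00178, but 0.161 without chimera 11), and its WT value of −0.44 ± 0.22 did not pass (adjusted p = 0.293) but passed in 6 of 13 alternatives, with adjusted p from 0.00756 to 0.997. *Il21* was higher by 2.62 ± 0.64 in DKO stimulated than DKO naive cells (edgeR adjusted p = 0.00529), at 13 to 37 counts per stimulated library. This call was lost with limma on log2(TPM + 1) (0.45, adjusted p = 0.273), and held in the 12 other alternatives at 1.52 to 3.34. The *Il21* WT value of 1.04 ± 0.47 did not pass (adjusted p = 0.203). For neither gene did the genotypes differ in the response by the interaction test (0.60 lower in DKO for *Sh2d1a* and 1.58 higher in DKO for *Il21*, edgeR adjusted p = 1 for each). *Prdm1* did not pass in either genotype, although its WT value of −0.62 ± 0.23 (adjusted p = 0.0945) passed in 8 of 13 alternatives and was −0.82 without the naive and stimulated WT samples of chimera 12 (adjusted p = 0.00573). *Maf* and *Ascl2* did not pass in either genotype, and *Ascl2* had 2 to 4 counts in each stimulated library.

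Across the 6 groups the *Bcl6* level was 114 ± 9.49 TPM in WT stimulated, 107 ± 5.05 in DKO anergic, 98.8 ± 2.19 in DKO stimulated, 77.1 ± 6.12 in WT anergic, 13.1 ± 1.37 in WT naive and 9.44 ± 0.67 in DKO naive cells (SD, n = 3 each). The first pair in this order overlapped, and the other neighbours did not. The *Prdm1* level was 35.8 ± 0.79 TPM in WT anergic, 10.2 ± 0.67 in DKO anergic, 8.62 ± 1.05 in WT naive, 8.20 ± 2.21 in DKO naive, 4.99 ± 0.44 in DKO stimulated and 4.85 ± 0.55 in WT stimulated cells. In that order the naive groups overlapped each other, as did the stimulated groups. *Cxcr5* and *Maf* had at most 8.01 and 3.01 TPM in the 12 naive and stimulated libraries, whereas *Icos* and *Pou2af1* reached over 100 TPM in the stimulated ones.

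Of 15066 genes compared over the 18 libraries, those with the pattern most like *Bcl6* were *Bcl2a1d* (Pearson r = 0.989), *Bcl2a1b* (0.985), *Nfatc1* (0.985), *Marcksl1* (0.985) and *Mrps6* (0.981). Those most like *Prdm1* were *Lzts2* (0.956), *Acsbg1* (0.956), *Vav2* (0.936), *Foxp3* (0.935) and *Flicr* (0.931). These correlations describe 18 libraries that share 6 groups and 3 hosts.

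Other genes of the program were read from lists chosen for their role. Of 14 further factors and receptors upstream of *Bcl6*, 2 rose in DKO relative to WT anergic cells and none fell, beside 0.879% and 0.459% of all tested genes. Their median log2 fold change was 0.37 against −0.03 over all tested genes. *Tcf7*, whose product TCF-1 promotes *Bcl6*, was at 2738 to 2944 TPM in DKO anergic and 1319 to 1567 TPM in WT anergic libraries (log2 fold change 1.22 ± 0.27, edgeR adjusted p = 0.0184), a call lost without chimera 10 (0.549) or 11 (0.523). *Pou2f2*, which encodes a POU factor that POU2AF1 binds, was at 55.8 to 63.8 TPM in DKO anergic and 33.5 to 39.1 TPM in WT anergic libraries (0.93 ± 0.23, adjusted p = 0.0391), and its call was also lost without chimera 10 (0.662) or 11 (0.374). Between anergic and naive cells 7 of the 14 rose and 2 fell in DKO cells, beside 6.65% and 2.76% of all tested genes. In WT cells 6 rose and 4 fell, beside 5.11% and 4.71%. *Tox2*, which promotes Tfh differentiation, had 572 to 689 TPM in DKO anergic against 0.295 to 0.893 TPM in DKO naive libraries, and 279 to 386 TPM in WT anergic against 0.662 to 1.09 TPM in WT naive libraries.

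Of 12 other surface proteins and cytokines of Tfh cells, 4 rose in DKO relative to WT anergic cells and none fell. Of all tested genes 0.879% rose and 0.459% fell. The median log2 fold change of the 12 was 0.84. *Tnfsf8* (the CD30 ligand) had 784 to 944 TPM in DKO anergic and 174 to 257 TPM in WT anergic libraries, a log2 fold change of 2.15 ± 0.29 (SE, n = 3, edgeR adjusted p = 5.40e-05). *Cd40lg*, the ligand through which T cells activate B cells, had 546 to 642 TPM in DKO and 114 to 200 TPM in WT anergic libraries (2.03 ± 0.33, adjusted p = 0.000673). *Cd200* rose by 1.54 ± 0.25 and *Btla* by 1.28 ± 0.26, and the *Btla* call was lost without chimera 10 (adjusted p = 0.153) or 11 (0.298). Of the 12 genes, 11 were higher in anergic than naive DKO cells and none was lower, beside 6.65% and 2.76% of all tested genes. In WT cells 7 were higher and 1 lower, beside 5.11% and 4.71%. The lower 1 was *Cd40lg*, which was higher in anergic than in naive DKO cells (1.13 ± 0.32) and lower in anergic than in naive WT cells (−1.14 ± 0.32). *Izumo1r*, which encodes the gate marker FR4, was higher in anergic than naive cells by 4.51 ± 0.32 in DKO and 4.88 ± 0.33 in WT cells, and *P2rx7* by 4.81 ± 0.25 in DKO and 4.28 ± 0.24 in WT cells (log2, SE, n = 3).

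Of 17 genes that oppose the Tfh fate or are kept low in Tfh cells, 3 rose and 2 fell in DKO relative to WT anergic cells. Of all tested genes 0.879% rose and 0.459% fell. The median log2 fold change of the 17 was 0.13. The 2 that fell were *Il2ra*, which encodes CD25, the antigen the sort selected against, at 4.63 to 5.95 TPM in DKO and 27.8 to 41.4 TPM in WT anergic libraries (−2.42 ± 0.30, edgeR adjusted p = 2.58e-05), and the chemokine receptor gene *Ccr6* (−2.27 ± 0.46, adjusted p = 0.00765). *Ccr6* lost its call without chimera 10 (adjusted p = 0.238) or 11 (0.221). The 3 that rose were *Klf2*, a factor that restrains Tfh differentiation (2.05 ± 0.27, adjusted p = 5.19e-05), *Id2* (1.37 ± 0.24, adjusted p = 0.00184) and *Il7r* (0.90 ± 0.23, adjusted p = 0.0443). *Id2* and *Il7r* were lost without chimera 10 or 11 (adjusted p from 0.0581 to 0.666). *Klf2* was at 130 to 195 TPM in DKO anergic and 37.7 to 49.8 TPM in WT anergic libraries, and both were below the 884 to 1393 TPM of the naive libraries. Between anergic and naive cells 6 of the 17 rose and 8 fell in DKO cells, beside 6.65% and 2.76% of all tested genes. In WT cells 5 rose and 8 fell, beside 5.11% and 4.71%. *Tbx21*, the Th1 factor gene, rose by 5.82 ± 0.46 in DKO and 6.04 ± 0.48 in WT cells (log2, SE, n = 3).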

How the data were processed

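The 18 libraries were made by the submitters from RNA of 2000 cells each with SMART-seq v4 and Nextera XT, which do not mark strand. Per the labels and the study's methods, the authors cleaned reads with fastp, mapped them with STAR on mm10 and counted them with featureCounts, and deposited whole-number counts per gene (versions and annotation: not given in the sources used here). Also, the authors deposited TPM, which is scaled for gene length and library size and is used here for levels. The deposited log2 fold changes and p-values of the authors' own comparisons were not used.

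Of 55401 entries, 117 had no name (0.0654% to 0.136% of counts) and were left out. Counts of the genes kept by filterByExpr (33795) were scaled by TMM and fitted with glmQLFit (edgeR 4.0.16, R 4.3.3) in 1 model of 6 groups with the chimera as a block, and tested with glmQLFTest with Benjamini-Hochberg adjustment. Each standard error is the size of the log2 fold change over √F. The 3 libraries of a group came from 3 chimeras. Mean differences between the hosts were taken out by the block. The error behind each p-value was the remaining spread, pooled over all 6 groups and drawn toward that of other genes (prior df 13.9). A p-value thus does not measure the spread of that 1 difference over 3 hosts alone, and libraries outside the comparison add to its error. The pairing comes from the labels: DKO and WT libraries with the same number came from 1 host, and over the 9 such pairs their deviations from group means correlated at −0.21 to 0.51 (median 0.18). Libraries of a group differed by more than counting noise (chi-square per gene 6.96 to 43.6). The 13 alternatives were no replicate block, RLE factors, TMM factors from genes with log2 CPM over 1, DESeq2 1.42.0, no low-count filter, a filter of log2 CPM over 1, only the groups compared, limma 3.58.1 on log2(TPM + 1) and on log2(TPM + 0.1), leaving out each chimera, and leaving out the chimera 12 WT naive and WT stimulated libraries. The scripts were tested on simulated data.

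Coordinates are those of GENCODE vM21 (GRCm38, the build of mm10). The members, gene lists, marker lists and alternatives were chosen with earlier results of these data known. Named genes are all members, from each other list up to 4 genes with the smallest adjusted p in DKO over WT anergic cells and in anergic over naive cells, the marker genes of cells that also use a member, and the 5 genes most like *Bcl6* and *Prdm1*. *Il7r* and the single markers other than *Foxp3* and *Cd79a* were chosen after their values were seen. Some genes that this rule names are not reported here.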

Additional observations from a re-analysis of the deposited data

Results flagged for a closer look

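For a pair of the follicular helper genes the difference between DKO and WT cells was not the same in anergic and in naive cells, by the test of that difference itself. For *Il21* the log2 fold change of DKO over WT was larger in anergic than in naive cells by 4.41 ± 0.74 (SE, n = 3 chimeras, edgeR adjusted p = 0.00364), with 2 to 6 counts in DKO naive libraries and 12 to 25 in WT naive libraries behind the naive value. For *Slamf6* it was larger by 1.51 ± 0.32 (SE, n = 3, edgeR adjusted p = 0.0285). Over the 13 alternatives the *Il21* value ranged from 2.56 to 5.08 and the *Slamf6* value from 1.15 to 1.87. Without chimera 10 neither passed (adjusted p = 0.057 for *Il21* and 0.663 for *Slamf6*), nor without chimera 11 (0.076 and 0.447).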

How the results depend on the processing

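Shares of all tested genes called were not taken under the alternatives, so the counts below describe the members alone. The number of members called in DKO over WT anergic cells was 5, and it was 8 when only the groups compared were fitted and 3 to 7 with a chimera left out. In naive cells it was 0, and 1 with no low-count filter. For stimulated over naive WT cells it was 5, and 8 with a filter of log2 CPM over 1 and 3 to 6 with a chimera left out. For stimulated over naive DKO cells it was 7, and 4 to 7 with a chimera left out. For the difference between the genotype effects in anergic and naive cells it was 2, and 1 with RLE factors, 4 with DESeq2 and with no low-count filter, 6 with limma on log2(TPM + 1), 0 to 5 with a chimera left out and 5 each with TMM factors from genes with log2 CPM over 1, with a filter of log2 CPM over 1, with only the groups compared, with limma on log2(TPM + 0.1) and without the naive and stimulated WT samples of chimera 12. The number of calls between genotypes in stimulated cells and in anergic over naive cells stayed within 1.5 times under each alternative. Without the replicate block, the analysis that ignores the pairing left 5 members called in DKO over WT anergic cells, 9 in anergic over naive cells of either genotype and 6 in stimulated over naive DKO cells.

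No member value given in the report changed sign under an alternative. Of the 33 member differences not given as values, 424 alternatives held 62 changes of sign, with none passing before or after the change. Depth limits *Ascl2* and *Il21* in naive and stimulated cells, where at most 45 counts per library were available. The cause of the changes above was not tested.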
